A study of Homo sapiens with 6 samples.

Results

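The MHC class II genes and their transactivator were followed in HT29 cells, an established human line from a colorectal adenocarcinoma, after a day with a polyphenolic cocoa extract. The 9 genes were HLA-DMA, HLA-DMB, HLA-DRA, HLA-DPA1, HLA-DPB1, HLA-DOA, HLA-DOB, CD74 and CIITA, taken by symbol from the probe sets that carry exactly 1 gene symbol. They were read by 22 probe sets, of 54613 tested, and make up 9 of the 19775 genes tested. The 3 cocoa cultures received 500 µg of the extract for 24 h, with no volume stated, and the 3 control cultures received saline according to the protocol, although the sample names call them untreated. All 6 cultures were started from 300000 cells of the same line in serum-containing medium, and each was read on 1 array. The deposited values are log2 expression centred on the median of the 6 arrays for each probe set, so they give differences between arrays and no levels. A gene without signal and a gene whose signal did not differ therefore cannot be told apart, the genes cannot be ordered by level, and the cell type could not be checked against its markers. The labels do not say whether the cultures of a group come from separate experiments. The p-values rest on the spread among these cultures, which the fit draws for each gene toward a spread shared over all genes.

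MHC class II molecules present peptides from endosomes to CD4+ T cells. An α and a β chain (HLA-DR, HLA-DP or HLA-DQ) assemble with the invariant chain CD74, which blocks the peptide groove, and in the endosome CD74 is cut down to the fragment CLIP. HLA-DM, a dimer of HLA-DMA and HLA-DMB, exchanges CLIP for peptide, and HLA-DO, a dimer of HLA-DOA and HLA-DOB, inhibits HLA-DM. CIITA is the coactivator that is drawn to class II promoters by factors bound to their X and Y boxes. It is expressed constitutively in professional antigen-presenting cells, and in epithelial cells it is induced by interferon gamma.

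Both chains of the peptide exchanger HLA-DM were higher with cocoa, HLA-DMA 1.99-fold and HLA-DMB 1.48-fold. The other 7 genes did not pass the threshold, a Benjamini-Hochberg adjusted p below 0.05 over all genes in limma. Among these 7 were the chains of HLA-DR, HLA-DP and HLA-DO, CD74 and CIITA itself. Thus 2 of 9 genes were called, both upward, where 13.5% of all genes were called in either direction, 7.36% upward and 6.12% downward. The median log2 difference was 0.054 over the 9 genes and −0.012 over all genes. With 9 genes, a count of 2 says little about the set, and the account below rests on the single genes.

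HLA-DMA had centred log2 values of 0.58, 0.44 and 0.54 in the cocoa arrays, against −0.44, −0.44 and −0.52 in the control arrays. The 3 arrays of each group lay close together and the groups were far apart. The log2 difference was 0.99 (SE 0.067, 95% interval 0.84 to 1.14, adjusted p = 4.71e-05, n = 3 arrays per group), which placed HLA-DMA at rank 103 of all genes ordered by increase. It rests on a single probe set, 217478_s_at, and the suffix means that its probes may match more than 1 transcript. HLA-DMB had values of 0.05, 0.18 and 0.59 in the cocoa arrays, against −0.46, −0.05 and −0.35 in the controls. Every cocoa array was above every control array, but cocoa array 3 stood well above the other 2, and cocoa array 1 and control array 2 differed little. The log2 difference was 0.56 (SE 0.15, interval 0.23 to 0.89, adjusted p = 0.0342), again from a single probe set, 203932_at.

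The call of HLA-DMA was kept in all 6 fits that left out 1 array, with differences of 0.96 to 1.03. That of HLA-DMB was kept in 2 of them. Its adjusted p was 0.12 without control array 1, 0.0996 without control array 3, 0.0767 without cocoa array 3 and 0.0636 without cocoa array 2, with log2 differences of 0.40 to 0.68 over the 6 fits. Adjusted over probe sets in place of genes, HLA-DMB missed the threshold (adjusted p = 0.0647) and HLA-DMA passed it (0.00043), so that 1 of 22 probe sets was called, upward, against 7.98% of all probe sets (4.68% upward and 3.3% downward). The 18S ribosomal RNA control signal stood at −0.51, 3.31 and 1.40 in cocoa arrays 1 to 3 and between −1.12 and 0.51 in the controls. With it as a covariate the difference was 1.04 for HLA-DMA (adjusted p = 0.000534) and 0.44 for HLA-DMB (0.198). The actin and GAPDH control probe sets are centred too, so their 5′ minus 3′ signal gives shifts between arrays and no level of RNA integrity. This signal, which varies with RNA integrity and labelling, was 0.03, −0.26 and −0.05 in cocoa arrays 1 to 3 and 0.0090 to 0.03 in the controls. With it as a covariate the log2 difference was 1.05 for HLA-DMA (adjusted p = 0.000363) and 0.57 for HLA-DMB (0.117). The part of these signals in the values was not tested further. In cocoa array 1 alone, whose 18S signal was within the range of the controls, the difference from the 3 controls was 1.05 for HLA-DMA (0.00247) and 0.34 for HLA-DMB (0.246), on the assumption that a lone array varies like the controls.

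**Figure D1:**
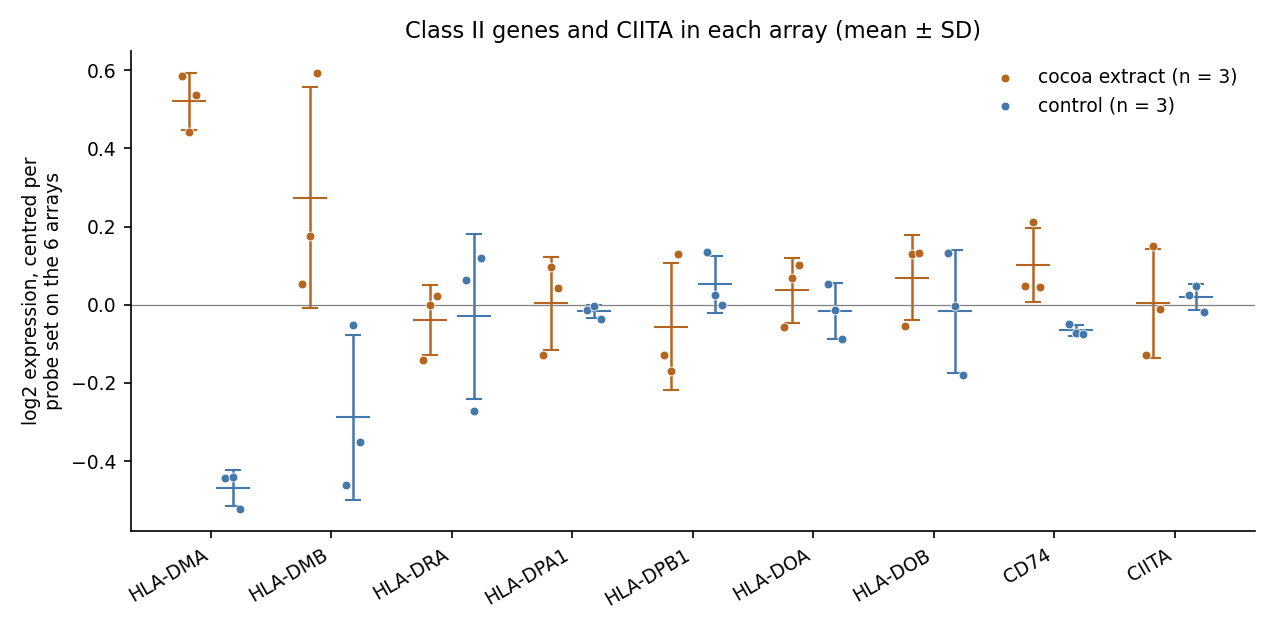
Centred log2 expression of the 9 genes (y axis) in the cocoa arrays (brown, left of each pair) and the control arrays (blue, right), with points for arrays and bars for the mean ± SD (n = 3). HLA-DMA is separated by a wide gap, HLA-DMB and CD74 are separated by small gaps, and the other 6 genes overlap.

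The promoters of the HLA-DM pair and of 2 further genes are shown because X and Y boxes are where CIITA is recruited. They run from 250 bases before to 50 after the gene start in RefSeq on GRCh38.p14, 5′ to 3′ on the gene's strand. Capitals mark 2 sets of letters found on either strand. They are the Y box core ATTGG, which reads CCAAT on the other strand, and an X box core pattern. That pattern is made of G, 2 bases of any kind, AC, 3 bases of any kind and TG.
HLA-DMA, chr6:32953048-32953347, minus strand: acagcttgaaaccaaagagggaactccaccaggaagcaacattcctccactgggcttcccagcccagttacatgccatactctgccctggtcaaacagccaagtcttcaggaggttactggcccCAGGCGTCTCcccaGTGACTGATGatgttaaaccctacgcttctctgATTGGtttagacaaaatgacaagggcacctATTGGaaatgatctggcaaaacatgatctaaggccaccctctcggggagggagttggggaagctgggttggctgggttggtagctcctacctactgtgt
HLA-DMB, chr6:32940979-32941278, minus strand: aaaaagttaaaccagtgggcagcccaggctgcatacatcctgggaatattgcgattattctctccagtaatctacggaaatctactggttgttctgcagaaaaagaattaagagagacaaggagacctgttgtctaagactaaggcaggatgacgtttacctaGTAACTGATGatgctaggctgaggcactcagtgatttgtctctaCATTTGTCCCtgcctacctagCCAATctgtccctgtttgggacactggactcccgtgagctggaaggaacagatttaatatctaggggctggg
CD74, chr5:150412861-150413160, minus strand: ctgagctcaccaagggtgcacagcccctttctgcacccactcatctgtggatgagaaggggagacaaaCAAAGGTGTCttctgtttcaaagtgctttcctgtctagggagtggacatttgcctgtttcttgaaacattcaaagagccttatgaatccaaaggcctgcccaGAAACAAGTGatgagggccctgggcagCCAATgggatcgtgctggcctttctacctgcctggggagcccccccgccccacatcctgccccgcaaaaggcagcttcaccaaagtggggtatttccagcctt
HLA-DPB1, chr6:33075740-33076039, plus strand: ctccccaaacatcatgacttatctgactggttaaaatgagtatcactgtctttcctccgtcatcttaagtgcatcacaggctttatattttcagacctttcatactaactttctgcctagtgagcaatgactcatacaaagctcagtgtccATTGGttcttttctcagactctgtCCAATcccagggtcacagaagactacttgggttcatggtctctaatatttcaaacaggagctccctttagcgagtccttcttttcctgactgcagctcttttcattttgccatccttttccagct

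In HLA-DMA the X core on the gene's strand began 112 bases before the start and the next ATTGG began 79 bases before it, with 23 bases between. HLA-DMB held an X core that began 87 bases before the start, which differed from that of HLA-DMA by G3A (HLA-DMA first, counted from the 5′ end of the core). The search itself fixes 5 of the 10 positions, and 4 of the 5 free positions were the same. The CCAAT of HLA-DMB followed after 55 bases. In CD74 an X core began 80 bases before the start, with CCAAT 17 bases after it. HLA-DPB1 held ATTGG and CCAAT and no match to the X core pattern, which does not show that it lacks an X box. On the opposite strand HLA-DMA, HLA-DMB and CD74 each held 1 further match to the X core, also in capitals.

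The promoter table held 8 sequences for 7 of the 9 genes, 2 of them for HLA-DPA1. HLA-DRA and CIITA are named only. ATTGG was present in 6 of the 8 and in 34.6% of all 35116 promoters, and the X core in 4 of the 8 and in 35.6% of all. An X core followed on the same strand by ATTGG after 10 to 40 bases was found in 1 of the 8, HLA-DMA, and in 1.13% of all. HLA-DOA (gcaacagata) and HLA-DOB (gtacctgatg) held similar letters before ATTGG that the pattern, with 5 fixed bases, does not take. The X core counted in HLA-DOA lay on the opposite strand, 52 bases before the start, and its ATTGG began at 67. An interferon gamma activation site (TTCNNNGAA, 7.66% of all) and an interferon-stimulated response element (GAAA, 2 bases of any kind and GAAA, 3.57%) were found in 0 of the 8 on either strand. The X and Y cores did not overlap in these promoters. These matches describe letters and are no evidence of binding, and a promoter without a match is not shown to lack an X box. Genes with and without ATTGG are found among those that did not pass the test.

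The classical chains showed small differences of either sign. HLA-DRA, the nearly monomorphic α chain of HLA-DR, had centred values of −0.14, −0.00014 and 0.02 with cocoa, against 0.06, −0.27 and 0.12 in the controls. The control arrays spanned the cocoa arrays, and the log2 difference was −0.0096 (SE 0.11, 95% interval −0.25 to 0.23, adjusted p = 0.971). HLA-DPA1, the α chain of HLA-DP, had −0.13, 0.10 and 0.04 with cocoa, against −0.01, −0.0024 and −0.04 in the controls, with a difference of 0.02 (SE 0.074, −0.15 to 0.19, 0.906). Here the spread was wider among the cocoa arrays. HLA-DPB1, the β chain of HLA-DP, had −0.13, −0.17 and 0.13 with cocoa, against 0.14, 0.02 and −0.0018 in the controls. It was lower in cocoa arrays 1 and 2 and not in cocoa array 3, and the difference was −0.11 (SE 0.090, −0.31 to 0.09, 0.506). As folds, the 95% intervals of HLA-DRA, HLA-DPA1 and HLA-DPB1 reached no lower than 0.806 and no higher than 1.17.

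The 7 probe sets of these 3 genes all overlapped between groups, with differences of −0.15 to 0.07. Of the HLA-DR and HLA-DQ chains outside the 9 genes, 5 of 8 listed were measured by probe sets of 1 symbol. They were HLA-DRB1, HLA-DRB4, HLA-DQA1, HLA-DQB1 and HLA-DQB2. None of the 5 passed in limma, 0 had an unadjusted p under 0.05, and their differences ran from −0.12 to 0.06 (lowest adjusted p = 0.343). A further 6 probe sets carry several class II symbols, and 0 of the 6 were called in limma or had an unadjusted p under 0.05 (−0.05 to 0.15, lowest adjusted p = 0.349).

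**Figure D2:**
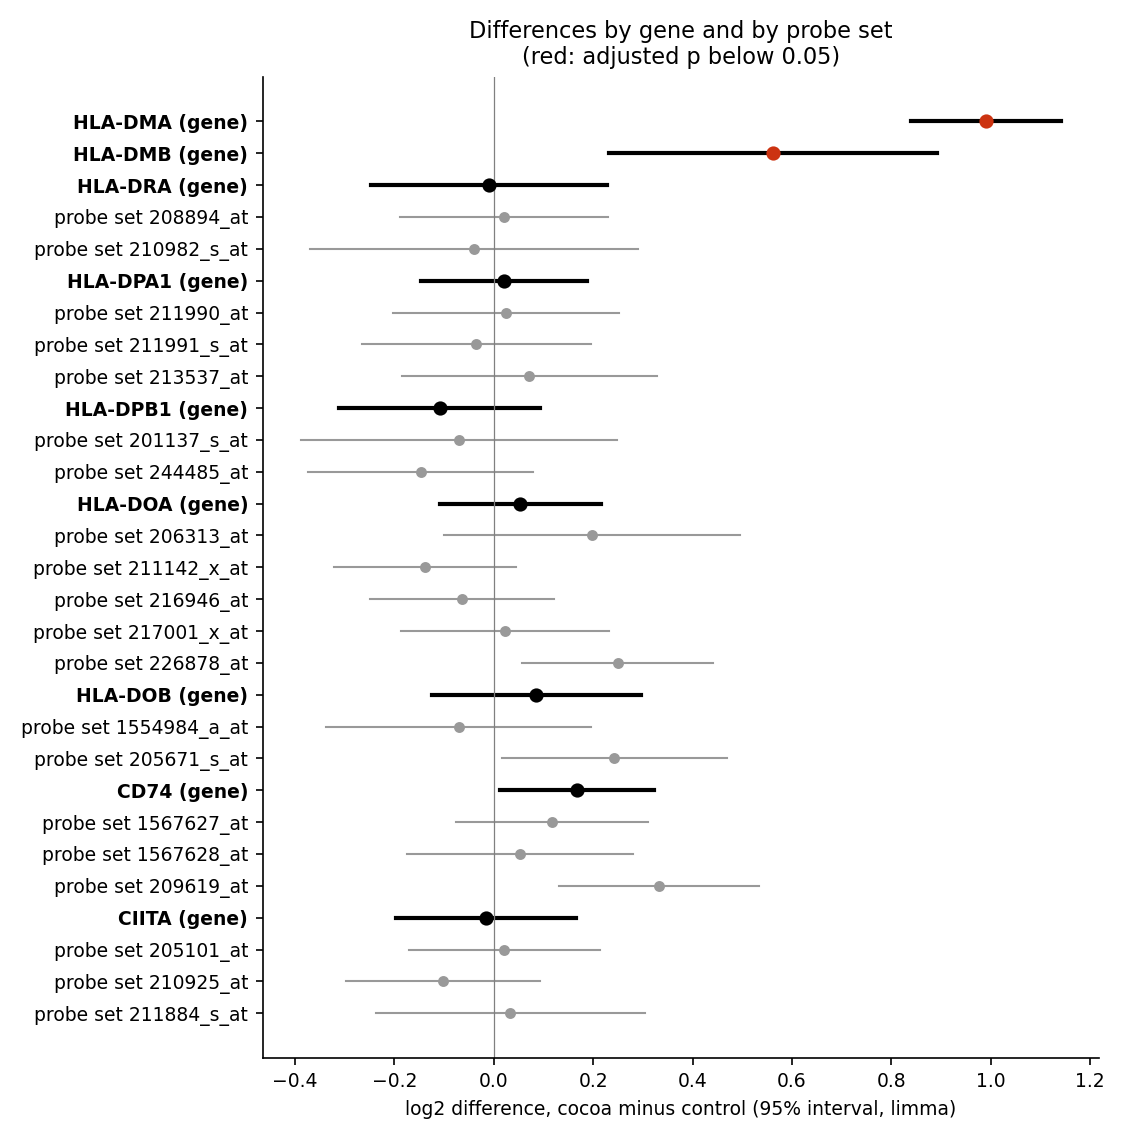
Log2 difference, cocoa minus control, with its 95% limma interval (x axis) for each gene (bold) and for each probe set of genes with several (grey). HLA-DMA at 0.99 and HLA-DMB at 0.56 are the genes past the threshold (red). The probe sets of HLA-DOA and HLA-DOB read differences of both signs, and those of CD74 read 0.05 to 0.33.

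HLA-DO, the inhibitor of HLA-DM, did not pass at either chain. HLA-DOA had −0.06, 0.07 and 0.10 with cocoa, against 0.05, −0.01 and −0.09 in the controls (difference 0.05, SE 0.072, adjusted p = 0.713). HLA-DOB had −0.06, 0.13 and 0.13 with cocoa, against 0.13, −0.0025 and −0.18 in the controls (0.09, SE 0.093, 0.635). The groups overlapped in both, and the probe sets of each gene read differences of both signs. Probe sets were not tested against one another. Of the 5 probe sets of HLA-DOA, 226878_at was higher in all cocoa arrays than in all controls (0.25, SE 0.084, adjusted p = 0.119 over probe sets), whereas 211142_x_at was lower in all cocoa arrays (−0.14, SE 0.080, 0.376). Of the 2 of HLA-DOB, 205671_s_at did not overlap and read 0.24 (SE 0.099, 0.194), and 1554984_a_at overlapped and read −0.07 (SE 0.12, 0.801).

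CD74, the invariant chain, had centred values of 0.05, 0.21 and 0.05 with cocoa, against −0.05, −0.07 and −0.07 in the controls. The groups did not overlap, which was also so for 32.5% of all genes (15.4% upward and 17% downward), and cocoa array 2 was the highest. The log2 difference was 0.17 (SE 0.069, 95% interval 0.01 to 0.32) with an adjusted p of 0.152. Most of it came from 1 of 3 probe sets: 209619_at read 0.33 (SE 0.088, adjusted p = 0.0559 over probe sets), with 0.10, 0.28 and 0.13 in the cocoa arrays, against −0.10, −0.28 and −0.12 in the controls. The probe sets 1567627_at and 1567628_at read 0.12 and 0.05, with overlapping groups. In all, 3 of the 9 genes had groups that did not overlap, HLA-DMA, HLA-DMB and CD74, each higher with cocoa, and so had 6 of the 22 probe sets, 5 higher and 1 lower, against 27.6% of all probe sets (12.9% higher and 14.7% lower).

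CIITA, the transactivator, had centred values of −0.13, 0.15 and −0.01 with cocoa, against 0.03, 0.05 and −0.02 in the controls. The cocoa arrays lay on both sides of the controls. The log2 difference was −0.02 (SE 0.080, adjusted p = 0.935), and its 95% interval ran from 0.873-fold to 1.12-fold. The 3 probe sets read 0.02, −0.10 and 0.03 and all overlapped. Whether CIITA had signal on these arrays at all is unknown because of the centring.

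HLA-DMB and HLA-DMA are neighbours in the class II region, and 19 of the 33 annotated genes from HLA-DRA to HLA-DPB1 were measured. In chromosomal order the 7 genes from HLA-DRA to HLA-DOB did not pass. The next 5, TAP2, PSMB8, PSMB8-AS1, TAP1 and PSMB9, all rose, LOC100294145 did not pass, HLA-DMB and HLA-DMA rose, and the last 4, BRD2, HLA-DOA, HLA-DPA1 and HLA-DPB1, did not pass. In all 7 of the 19 rose, where 7.36% of all genes did, 0 fell and 12 did not pass. TAP1 and TAP2, the subunits of the transporter that feeds peptides to class I molecules, rose by 0.59 (SE 0.11) and 0.47 (SE 0.075), and PSMB8 and PSMB9, subunits of the immunoproteasome, rose by 0.57 (SE 0.078) and 1.56 (SE 0.14). PSMB8-AS1, a non-coding RNA annotated antisense to PSMB8, rose by 0.49 (SE 0.084). Each of these 5 calls was kept without any 1 array, and that of PSMB9 was kept in every alternative. The fit without probe sets of the suffixes _s_at and _x_at does not measure TAP1 or PSMB8, whose probes may match more than 1 transcript. With the 18S covariate TAP1 read 0.46 and its call was lost (adjusted p = 0.0548). Without cocoa arrays 2 and 3 together the calls of TAP1 (0.39, 0.0927), TAP2 (0.38, 0.0515), PSMB8 (0.52, 0.0538) and PSMB8-AS1 (0.46, 0.0866) were lost.

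**Figure D3:**
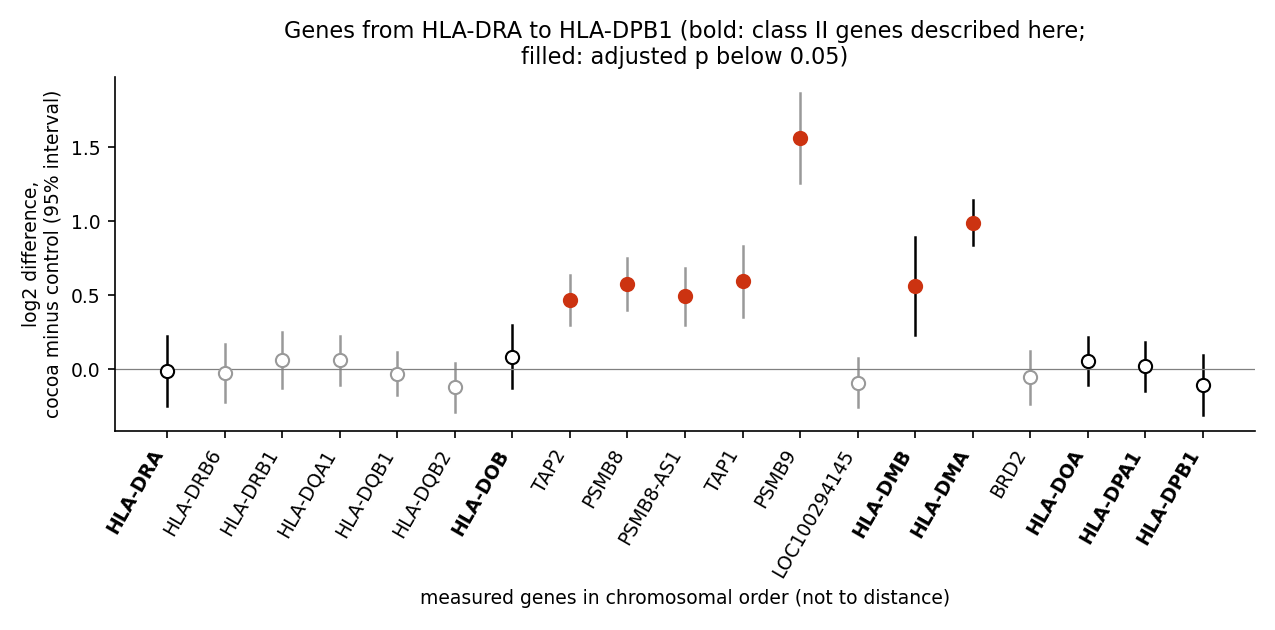
Log2 difference, cocoa minus control, with its 95% limma interval (y axis) for the 19 measured genes from HLA-DRA to HLA-DPB1 in chromosomal order (x axis, even spacing). The 7 genes past the threshold (filled red) all lie between TAP2 and HLA-DMA, and LOC100294145 is the 1 gene in that stretch that did not pass.

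The factors that hold CIITA at class II promoters were read from a list of 7 genes, of which 1 rose, 1 fell and 5 did not pass (median log2 difference −0.06). Of all genes, 7.36% rose and 6.12% fell. RFX5, the large subunit of the X box factor RFX, had 0.15, 0.11 and 0.22 with cocoa, against −0.10, −0.09 and −0.10 in the controls, and rose by 0.26 (SE 0.062, adjusted p = 0.0247). Its 2 probe sets differed in size: without those of the suffixes _s_at and _x_at RFX5 read 0.40 (SE 0.075). NFYA, the subunit of the Y box factor NF-Y that contacts CCAAT, had −0.12, −0.50 and −0.26 with cocoa, against 0.18, 0.16 and 0.11 in the controls, and fell by 0.45 (SE 0.095, 0.0148). Neither gene overlapped between groups, which was also so for 32.5% of all genes. The differences over the 6 fits without 1 array were 0.23 to 0.28 for RFX5 and −0.53 to −0.34 for NFYA, although the calls were lost in some of them. The adjusted p of RFX5 was above the threshold without cocoa array 3 (0.0805) and without control array 1 (0.0779), 2 (0.0955) or 3 (0.0725), and that of NFYA without control array 1 (0.0556) or 2 (0.0601). With the 18S covariate RFX5 read 0.27 (0.0897) and NFYA −0.30 (0.0918), so that none of the 7 was called. With the replicate block RFX5 read 0.26 (0.0629), and with the 5′ minus 3′ signal as a covariate 0.28 (0.0584).

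Against 7.36% of all genes, 1 of 8 measured genes rose in the list of signalling from interferon gamma to CIITA, and 7 did not pass (median 0.08). The gene was IRF1, a transcription factor that binds the interferon-responsive promoter of CIITA, with 0.18, 0.30 and 0.27 with cocoa, against −0.23, −0.18 and −0.41 in the controls (difference 0.52, SE 0.079, adjusted p = 0.00314). Its groups were clearly apart, and the call was kept without any 1 array. The receptor chains IFNGR1 (−0.22, SE 0.095, 0.167) and IFNGR2 (0.13, SE 0.062, 0.233) and the kinases JAK1 (0.09, SE 0.072, 0.495) and JAK2 (0.08, SE 0.076, 0.593) did not pass. PRDM1, a repressor of CIITA in plasma cells, read 0.22 (SE 0.081, 0.114). The fit without cocoa array 1 called 2 of the 8.

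Of 9 measured genes of endosomal processing and class II turnover 4 rose, 0 fell and 5 did not pass (median 0.18), where 7.36% of all genes rose. The list was chosen with earlier results of these data known. CTSS, cathepsin S, which cuts CD74 in antigen-presenting cells, had 0.33, 0.59 and 0.48 with cocoa, against −0.37, −0.43 and −0.35 in the controls, and rose by 0.85 (SE 0.078, adjusted p = 0.000259). CTSL, cathepsin L, which cuts CD74 in thymic epithelium in the mouse, rose by 0.54 (SE 0.080, 0.00274). LGMN, an asparaginyl endopeptidase of antigen processing, rose by 0.50 (SE 0.073, 0.00274), and CTSD, the aspartic protease cathepsin D, rose by 0.53 (SE 0.11, 0.0119). The groups did not overlap in any of the 4, which was also so for 32.5% of all genes. Each call was kept without any 1 array, although that of CTSD was lost, at little change in size, when the 18S signal (0.50, 0.0813) or the 5′ minus 3′ signal (0.49, 0.0701) was a covariate. CTSB, CTSH, CTSV and the ubiquitin ligases MARCHF1 and MARCHF8, which remove class II from the surface, did not pass. CTSL was measured by 1 probe set with a suffix for several transcripts.

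None of the 8 genes in the costimulation list passed in limma (median −0.02), against 13.5% of all genes. The list holds costimulatory, coinhibitory and adhesion molecules that act beside class II. Of the 8, 1 had an unadjusted p under 0.05. That 1 was ICAM1, an adhesion ligand of T cells (0.18, SE 0.070, adjusted p = 0.134). NLRC5, the class I counterpart of CIITA, had centred values of 0.63, 0.97 and 0.87 in the cocoa arrays, against −0.63, −0.77 and −0.75 in the controls (log2 difference 1.54, SE 0.093, adjusted p = 2.53e-05). HLA-E, a class I molecule, rose by 0.98 (SE 0.10), close in size to HLA-DMA, while the light chain B2M read 0.16 (SE 0.062, adjusted p = 0.123).

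**Figure D4:**
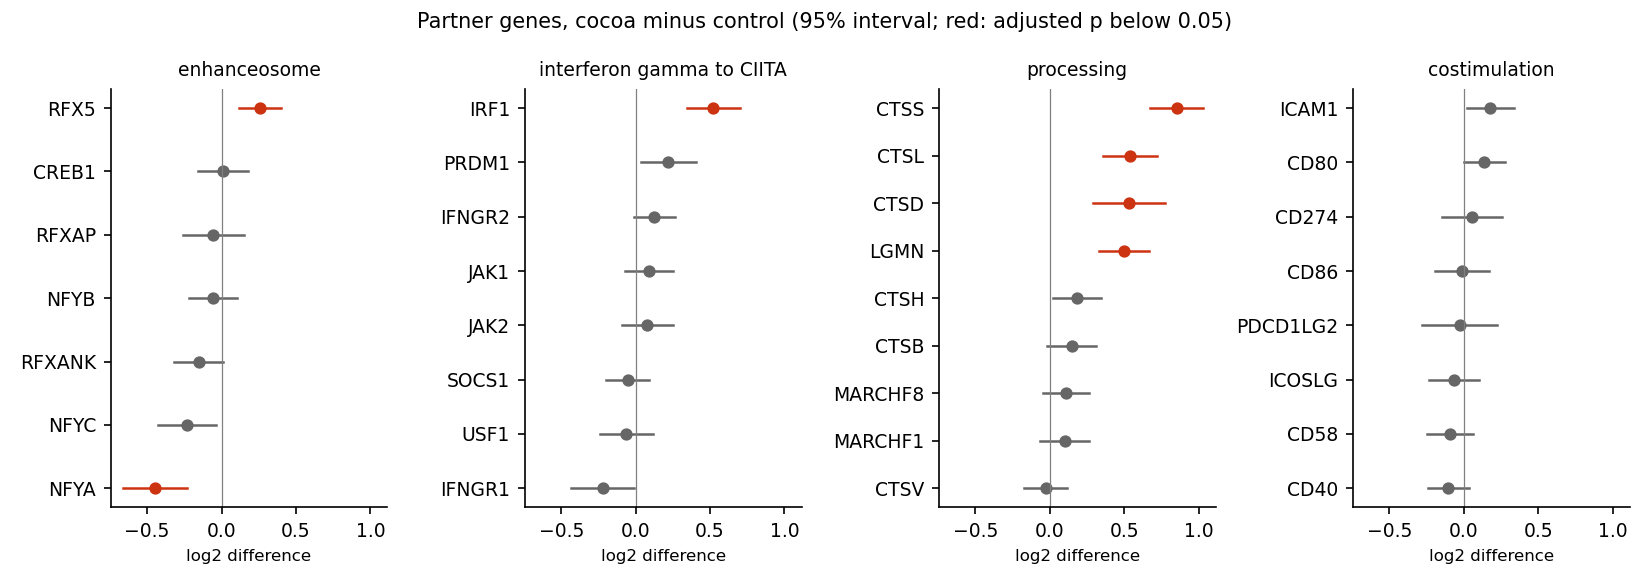
Log2 difference, cocoa minus control, with its 95% limma interval (x axis) for the measured genes of 4 lists (panels), ordered within a panel by size; red marks genes past the threshold. The processing list holds 4 such genes, all higher, the interferon gamma list 1, the promoter factors 1 in each direction and the costimulation list 0.

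Markers of immune cells that could carry class II were read beside these values. Of 9 measured, 1 rose and 8 did not pass (median 0.04), where 7.36% of all genes rose. The mean over the 9 was −0.02, 0.05 and 0.09 in the cocoa arrays, against −0.04, −0.04 and −0.11 in the controls. Without CD14, left out after seeing the data, the mean over the other 8 was −0.07, 0.03 and 0.06 with cocoa, against −0.01, 0.0074 and −0.04 in the controls, and the groups overlapped. The gene that rose was CD14, a lipopolysaccharide coreceptor of monocytes (0.75, SE 0.11, adjusted p = 0.00321), while PTPRC, the pan-leukocyte antigen CD45 (0.01, SE 0.068, 0.953), and MS4A1, the B cell antigen CD20 (−0.02, SE 0.066, 0.903), did not pass. Of 7 markers of colon epithelium 1 rose and 6 did not pass, beside the same 7.36% of all genes. The marker that rose was GPA33, a surface antigen of intestinal epithelium (0.24, SE 0.068, 0.0481), and among the 6 fits that left out an array it was past the threshold in 1. Whether these markers have a part in the class II values was not tested. In such bulk RNA a change in the number of cells that express a gene and a change in the RNA of each cell cannot be told apart.

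The genes whose centred values lay nearest to each of 3 class II genes over the 6 arrays were found by Euclidean distance on the log2 scale. Nearest to HLA-DMB were OLFML3 (distance 0.311, log2 difference 0.49), LINC02481 (0.321, 0.40) and PJVK (0.344, 0.40). Nearest to CD74 were ELOVL7 (0.0347, 0.18), CELSR1 (0.0397, 0.17) and TSPAN9 (0.0491, 0.19). Nearest to CIITA were ACVR1 (0.0372, −0.01), RPRD2 (0.0555, 0.0064) and ALDH1L2 (0.0577, −0.04). The distances were larger for HLA-DMB, whose arrays spread more, and all describe 6 arrays of 2 groups only.

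**Figure D5:**
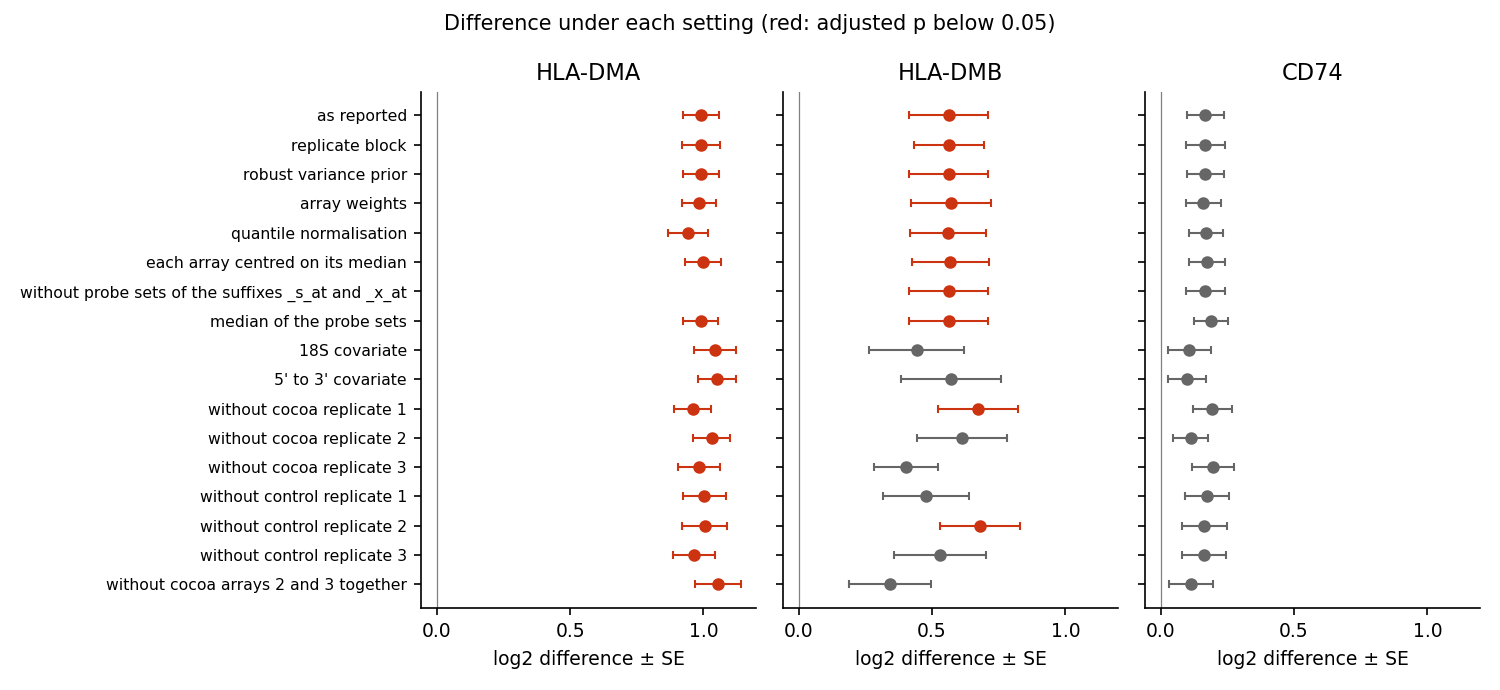
Log2 difference, cocoa minus control, ± SE (x axis) of HLA-DMA, HLA-DMB and CD74 under each setting of the analysis (rows), with red for an adjusted p below 0.05. HLA-DMA stays between 0.94 and 1.05 and red in every setting that measures it, HLA-DMB ranges from 0.34 to 0.68 and is red in part of them, and CD74 stays between 0.10 and 0.20 and is red in none.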

How the data were processed

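RNA of 6 HT29 cultures was read on Affymetrix U133 Plus 2.0 arrays, 1 array each. The authors computed log2 expression with RMA (background correction, quantile normalisation and summary of probes), per the submitters' processing notes; GeneSpring GX is named in the series text. Versions: not given in the sources used here. Each probe set of the log2 table as deposited was centred (largest absolute median over the arrays 5.0e-07), and the log base follows from RMA. The number of arrays limits the precision.

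Of 54675 probe sets, 62 Affymetrix controls were left out. The platform annotation gave 41091 of the rest 1 symbol, 1801 several and 11721 none, and 41037 matched RefSeq (GRCh38.p14) by gene ID. A gene was the mean of its probe sets. Cocoa minus control was fitted over all genes and over all probe sets with limma 3.58.1 (lmFit and eBayes) in R 4.3.3, with Benjamini-Hochberg adjustment over all of them, after a test on simulated data. Intervals are at 95%. Named were the 9 genes and their probe sets, list genes past the threshold and the nearest genes, with others added after their values were seen. The members, lists, motifs and the region were chosen with earlier results of these data known. Some listed genes are not reported here, and CD68, HLA-DRB3, HLA-DRB5 and HLA-DQA2 have only probe sets of several symbols. Alternatives were the replicate block, a robust prior, array weights, quantile normalisation, centring of arrays, fewer probe sets, their median, 18S and 5′ to 3′ control signals as covariates, and leaving out arrays. Figures were made with Python 3.11.15 and matplotlib 3.10.9.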

Additional observations from a re-analysis of the deposited data

How the results depend on the processing

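HLA-DMA was past the threshold in all 15 alternatives that measure it (adjusted p 2.12e-05 to 0.00247), and the fit without probe sets of the suffixes _s_at and _x_at does not measure it. HLA-DMB was past it in 9 of 16 (0.0221 to 0.246) and HLA-DRA, HLA-DPA1, HLA-DPB1, HLA-DOA, HLA-DOB, CD74 and CIITA in 0 of 16. The sign of HLA-DMA, HLA-DMB, CD74 and HLA-DPB1 was kept throughout, and that of the other 5 changed in 1 to 6 alternatives without a call. The number of the 9 genes called, 2, was 1 without probe sets of those suffixes, 1 with the 18S covariate, 1 with the 5′ to 3′ covariate, 1 without cocoa arrays 2 and 3 together (chosen after seeing the data), and 1 to 2 without 1 array. Of the 22 probe sets 1 was called, and 2 were with array weights and with quantile normalisation, 0 without the suffixes, which leaves out HLA-DMA, and 1 to 2 without 1 array. Of all genes 2666 were called, 1103 with the 18S covariate, 1411 with the 5′ to 3′ covariate, 845 without cocoa arrays 2 and 3, and 1315 to 2881 without 1 array. Of the promoter factors 2 were called, 1 with the replicate block, 0 with the 18S covariate, 1 with the 5′ to 3′ covariate, 0 without cocoa arrays 2 and 3, and 0 to 2 without 1 array. In the interferon gamma list 1 was called, 2 with the median of the probe sets, 0 without cocoa arrays 2 and 3, and 1 to 2 without 1 array. In the processing list 4 were called, and 3 to 4 in the alternatives. The cause of these moves was not tested beyond the fewer arrays or probe sets named. Deviations of cultures with the same replicate number correlated at −0.21, −0.06 and −0.0034. With 3 arrays per group these values cannot decide whether the numbers pair the cultures, and the labels do not say. With the replicate block the number of the 9 genes called stayed at 2, with HLA-DMB at 0.0434 and 1947 of all genes called. Without levels or slide names in the table, no filter on dim probe sets, background correction or slide block could be tried. Signal over background is unknown, so a difference compressed near background cannot be seen.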
